A study of Mus musculus with 12 samples.

Results

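The ZIP genes of the Slc39 family encode zinc importers, and 10 of them (Slc39a1, Slc39a3, Slc39a4, Slc39a5, Slc39a6, Slc39a7, Slc39a8, Slc39a9, Slc39a10 and Slc39a14) were followed here by their gene symbol among the 54838 genes of a mouse liver RNA-seq count table. The livers came from 12 female wild-type C57BL/6J mice of 8 to 14 weeks, held under specific pathogen-free conditions. For 7 days their drinking water was plain or held 25 mM ZnSO4. They were then injected either with PBS alone or with the synthetic glucocorticoid dexamethasone (Dex, 200 µg, dissolved in PBS), and 2 h later the liver was taken. The control group is named water-PBS, the groups with a single treatment zinc-PBS and water-Dex, and the group with both zinc-Dex. Each group holds 3 mice, described as biological replicates. Every mouse of every group received an injection, so the PBS groups carry the handling but not the hormone.

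ZIP proteins move zinc into the cytosol, from outside the cell or out of organelles, and the ZnT proteins of the Slc30 family move it the other way. Some ZIP proteins also carry manganese, iron or cadmium. In liver, metallothioneins (Mt1 and Mt2) bind the metal that enters, and the zinc-sensing factor MTF-1, encoded by Mtf1, switches on metallothioneins and the exporter gene Slc30a1 by binding metal response elements in their promoters. Dex acts through the glucocorticoid receptor, which binds glucocorticoid response elements.

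Library totals lay between 9091152 and 12303527 counts, and all 10 genes were tested in every comparison. Values below are counts divided by DESeq2's library size factors (normalized counts), with SD over n = 3 mice. A gene passed the test when its DESeq2 adjusted p was below 0.05, and was called when its log2 fold change also exceeded 0.8 in either direction. Known Dex-responsive genes (Fkbp5, Per1, Tsc22d3 and Tat) were higher in every Dex library than in any library that drank the same water without Dex. All 5 hepatocyte markers were detected in every library and summed to between 1148188.7 and 1655211.2 normalized counts, while 4 of 6 pancreatic acinar markers (Cpa1, Cpb1, Prss1 and Pnlip) had no count in any library. In whole tissue, fewer cells of a type and less RNA per cell cannot be told apart.

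Zinc lowered 1 of the 10 ZIP genes, Slc39a4, in PBS-injected mice and again in Dex-injected mice. Of all genes tested, 0.138% and 0.469% were called in these comparisons. Dex raised 1, Slc39a14, in plain-water mice and again in zinc-treated mice. With Dex 9.68% of all genes tested were called on either water, so that 1 of 10 is near the background. Slc39a1 was lower with Dex by a smaller amount, and no ZIP gene passed the test for a zinc by Dex interaction. The low-count genes Slc39a5 and Slc39a10 each passed in a single comparison, neither of which held when single libraries were left out, and the other 5 members passed none of the tests given here, although Slc39a6 and Slc39a8 passed under some alternatives.

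**Figure D1:**
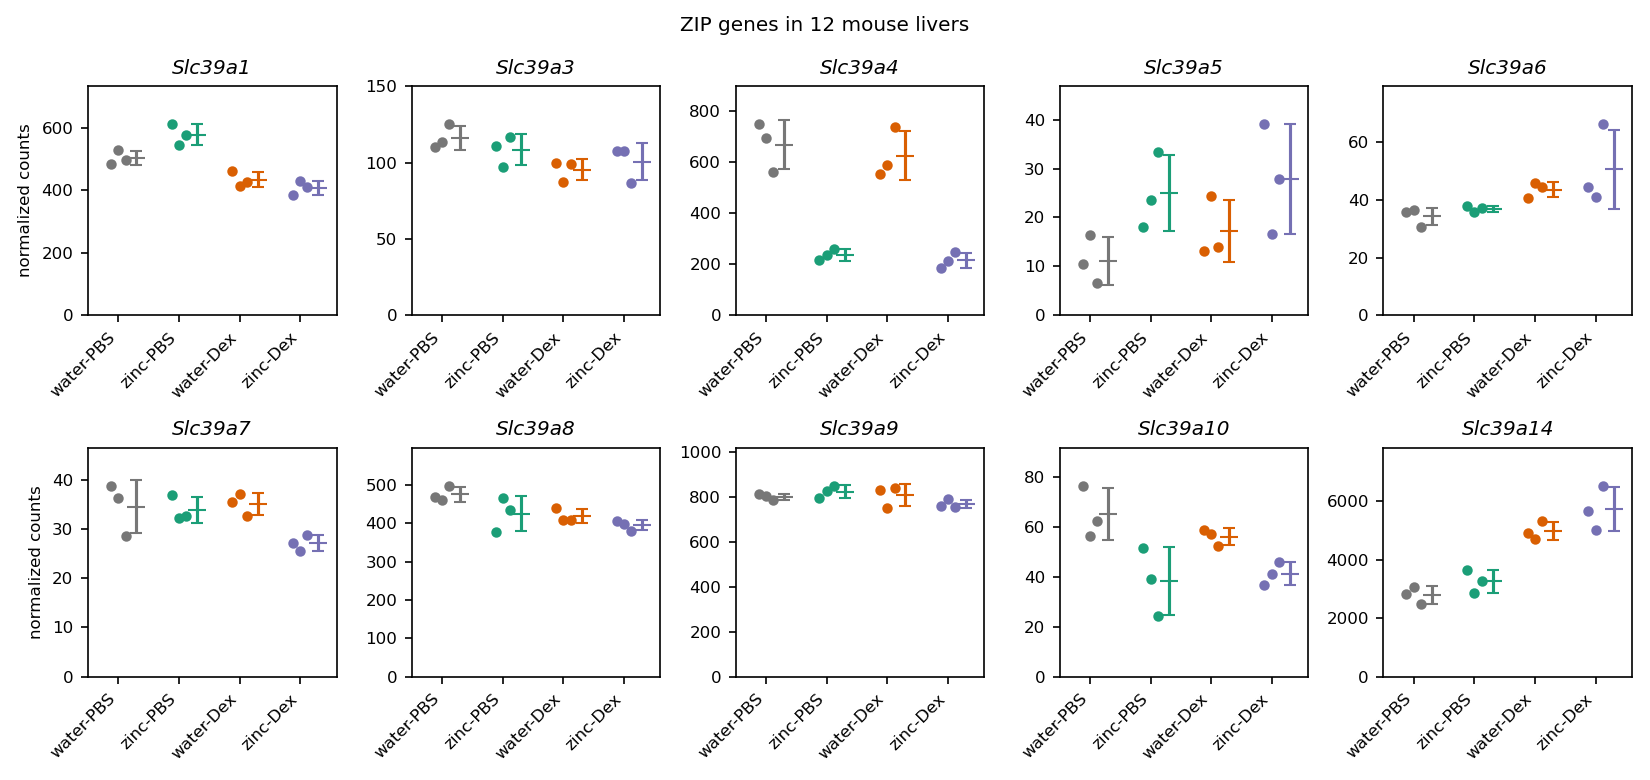
Normalized counts (vertical axis, from 0) of the 10 ZIP genes in each of the 12 libraries, by group, with the mean and SD of each group (n = 3) to the right of its points. Slc39a4 sits at 186 to 259 in the 6 zinc libraries and at 550.3 to 747 in the others, and Slc39a14 sits at 4713 to 6526 in the 6 Dex libraries and at 2467 to 3629.5 in the others.

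Slc39a4 (ENSMUSG00000063354, GRCm38 chr15:76612383-76617384, minus strand) encodes ZIP4, the plasma membrane importer best known for zinc uptake in the intestine, whose loss in humans causes the zinc deficiency disease acrodermatitis enteropathica. In the 3 water-PBS livers it had 747, 692 and 561 normalized counts. In the zinc-PBS livers it had 214, 234 and 259. The lowest control library lay above the highest zinc library by more than the spread within either group. The fall was 1.50 on the log2 scale (SE 0.154, DESeq2 adjusted p = 7.19e-19), or 2.83-fold lower. It was the only ZIP gene to pass or to be called in this comparison, in which 0.138% of 12307 tested genes were called and 0.341% passed on adjusted p alone.

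The same gene was lower with zinc when Dex was present. The water-Dex livers had 550.3, 587 and 734 normalized counts of Slc39a4, and the zinc-Dex livers had 186, 211 and 245, again with no overlap. Between these groups the log2 fold change was -1.54 (SE 0.157, DESeq2 adjusted p = 8.66e-19), 2.91-fold lower, and Slc39a4 was again the only ZIP gene past the test, where 0.469% of 12786 genes were called and 1.35% passed on adjusted p. The 2 zinc comparisons share no library. The difference between them was -0.04 on the log2 scale with a 95% interval of -0.47 to 0.39 (unadjusted p = 0.849 in the DESeq2 interaction test). With 3 mice per group, no dependence of the zinc response on Dex was shown, and its absence was not shown either. Dex itself moved Slc39a4 by -0.10 in plain-water mice (95% interval -0.39 to 0.20, DESeq2 adjusted p = 0.730) and by -0.14 in zinc-treated mice (adjusted p = 0.649). In a fit of all 12 libraries with zinc and Dex as separate terms, added after the data had been seen, zinc lowered Slc39a4 by an average log2 fold change of -1.52 (SE 0.105, DESeq2 adjusted p = 4.44e-43).

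Since Slc39a4 is abundant in gut epithelium, markers of that tissue were read beside it. Of 7 intestinal epithelium markers, 2 were detected in every library. Their sum was 589 to 757 normalized counts in water-PBS, 642 to 773 in zinc-PBS, 523 to 679 in water-Dex and 542 to 655 in zinc-Dex, and Fabp2, which liver also expresses, made up most of it in every library (503 to 737). Vil1, the brush border villin, had 6.30, 10.01 and 6.59 normalized counts in the controls and 25.3, 20.1 and 14.5 in the zinc-PBS livers. In the Dex pair, where Slc39a4 was also lower with zinc, Vil1 had means of 5.75 in water-Dex and 4.81 in zinc-Dex. Fabp2 had means of 664 in water-PBS, 636 in zinc-PBS, 602 in water-Dex and 601 in zinc-Dex. Of the 7, 6 had no adjusted p in zinc-PBS against water-PBS and 5 had none in zinc-Dex against water-Dex, because DESeq2 filters genes of low count, so these markers were for the most part not tested. The unadjusted p of Vil1 with zinc alone was 0.0104. The part of the intestinal markers in the Slc39a4 values was not tested.

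Among genes with at least 50 normalized counts on average, 3 had the profile most like that of Slc39a4, by the Euclidean distance of centred log2 values over the 12 libraries. They were Tubb2a, a beta-tubulin (distance 1.30), G6pc, the glucose-6-phosphatase that releases glucose from hepatocytes (1.50), and Serinc2 (1.65), beside a median of 2.77 over 9573 genes. Tubb2a differed by a log2 of -1.12 between zinc-PBS and water-PBS and by -1.10 between zinc-Dex and water-Dex. G6pc differed by -1.72 and by -0.77 in the same pairs of groups. None of the 3 therefore had a larger difference than Slc39a4 in both comparisons.

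Slc39a14 (ENSMUSG00000022094, GRCm38 chr14:70303469-70351425, minus strand) encodes ZIP14, a major ZIP importer of hepatocytes, which carries zinc, manganese and non-transferrin-bound iron and is known to be raised in the acute phase response. It had 2815.5, 3065 and 2467 normalized counts in the water-PBS livers. It had 4913, 4713 and 5306 in the water-Dex livers. Every Dex library was above every control library, and the log2 fold change was 0.84 (SE 0.122, DESeq2 adjusted p = 1.77e-10), 1.79-fold higher. Slc39a14 was the 1 ZIP gene called or passed of 10, which is a share near the background, since 9.68% of 14221 genes were called in this comparison and 21.6% passed on adjusted p.

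With zinc in the water the Dex difference of Slc39a14 was of like size. The zinc-PBS livers had 3629.5, 2868 and 3263 normalized counts, and the zinc-Dex livers 5657, 5026 and 6526, with no overlap. The log2 fold change was 0.82 (SE 0.122, DESeq2 adjusted p = 4.87e-10), 1.76-fold higher. The interaction was -0.02 with a 95% interval of -0.36 to 0.32 (unadjusted p = 0.906). Here too 9.68% of genes were called, now of 15657, and 20.1% passed on adjusted p, beside 1 and 2 of the 10 ZIP genes. Averaged over both waters, in the fit added later, Dex raised Slc39a14 by a log2 fold change of 0.83 (SE 0.0828, DESeq2 adjusted p = 5.47e-22).

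Some hepatocyte markers also differed with Dex. Their sum was 1148188.7 to 1362916.1 normalized counts in the 6 PBS libraries and 1502673.8 to 1655211.2 in the 6 Dex libraries. Alb made up most of this sum in every library (961036.9 to 1349825.6). On plain water 2 of 5 genes passed, Alb (log2 fold change 0.30) and Apoa1 (0.59). Ttr (0.14), Cyp2e1 (0.28) and Serpina1a (0.17) did not pass there. On zinc water 4 of 5 passed. Of the 5 sinusoidal endothelial markers 1 rose and 1 fell with Dex on either water. Lyve1 had a mean of 160 normalized counts in water-PBS and 927 in water-Dex (DESeq2 adjusted p = 1.25e-68), and Fcgr2b had 943 and 760 (adjusted p = 0.00135). The part of cell composition in the Slc39a14 difference was not tested.

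Both Dex values lay just above the threshold of 0.8, and leaving out single libraries took them below it while the adjusted p stayed under 0.05. The log2 fold change on plain water was 0.76 without water-PBS replicate 3 and 0.79 without water-Dex replicate 3. On zinc water it was 0.74 without zinc-PBS replicate 2 and 0.72 without zinc-Dex replicate 3.

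Zinc gave no passing difference in Slc39a14 with either injection. Its log2 fold change with zinc was 0.23 (95% interval -0.01 to 0.46, DESeq2 adjusted p = 0.904) with PBS and 0.20 (95% interval -0.03 to 0.44, adjusted p = 0.609) with Dex. Averaged over both injections, in the fit added later, it was 0.215 (95% interval 0.053 to 0.377, DESeq2 adjusted p = 0.161), which did not pass either. The highest of the zinc-PBS values, 3629.5 in replicate 1, came from a library in which acute phase genes stood apart. There Cxcl1 had 3021 normalized counts against 50.7 and 163 in the other zinc-PBS livers, Saa1 had 2865 against 250.01 and 236, and Socs3 had 701 against 83.9 and 146. Without that library the zinc difference of Slc39a14 was 0.14 and its Dex difference on zinc water was 0.91. Among the controls, replicate 2, with the highest Slc39a14 value of its group (3065), also had the highest Saa1 (1002 normalized counts against 267 and 191), Orm2 (691 against 252 and 223) and Saa2 (322 against 154 and 127). Without it the zinc difference of Slc39a14 was 0.30 and its Dex difference on plain water 0.91. The part of the acute phase genes in the Slc39a14 values was not tested.

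The profiles most like that of Slc39a14 were those of Pprc1, a coactivator related to PGC-1 (distance 0.267), Furin, a proprotein convertase (0.351), and Med30, a Mediator subunit (0.365), where the median over all genes compared was 1.60. Their log2 differences between water-Dex and water-PBS were 0.84, 0.84 and 0.89, and between zinc-PBS and water-PBS 0.17, 0.12 and 0.10.

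**Figure D2:**
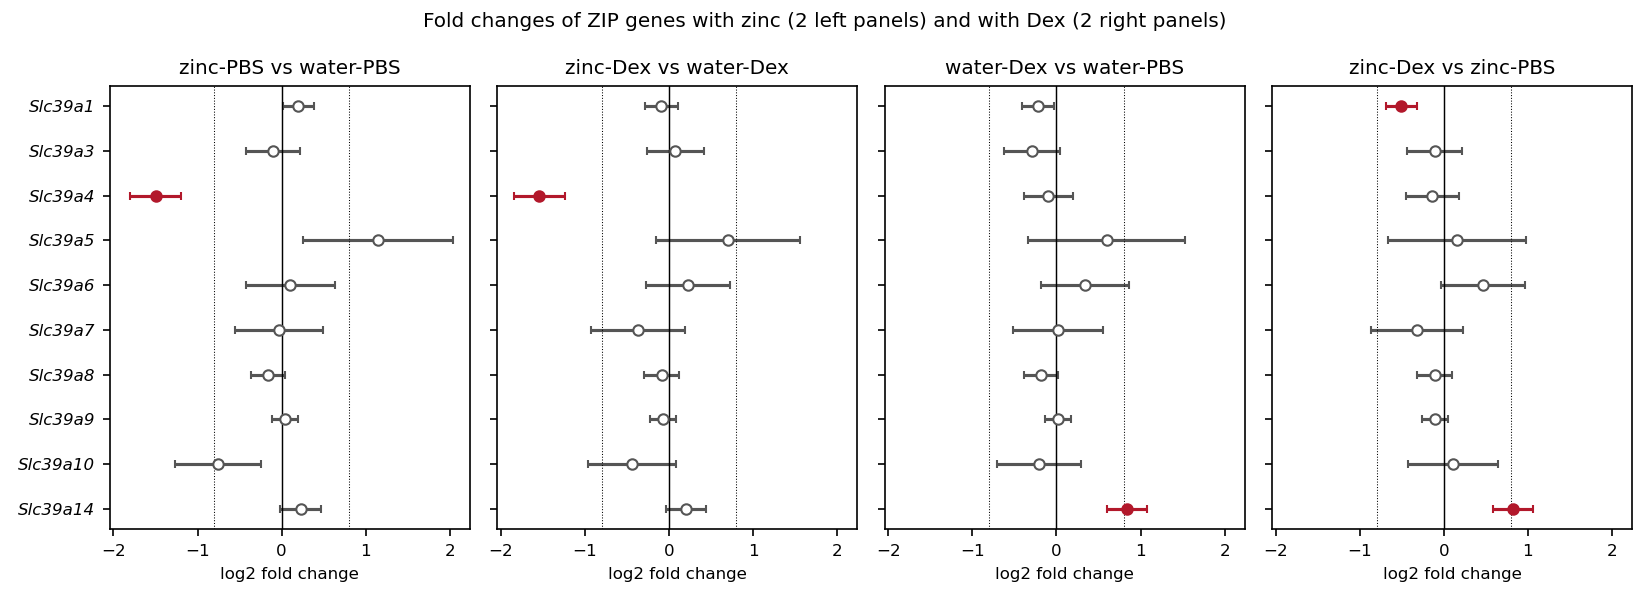
Log2 fold change (horizontal axis) of each ZIP gene in the 4 comparisons of 1 treatment, with 95% intervals from 3 against 3 mice. Filled red points have a DESeq2 adjusted p below 0.05 and dotted lines mark 0.8 in either direction: Slc39a4 is at -1.50 and -1.54 with zinc, Slc39a14 is at 0.84 and 0.82 with Dex, and Slc39a1 is at -0.50 with Dex on zinc water.

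The 250 bases before the RefSeq start site (GRCm38.p6) were searched on both strands for the metal response element core, TGCACNC or TGCGCNC, and for the glucocorticoid response element core ACANNNTGT. Windows were found for 7 of the 10 genes, 10 windows in all, with Slc39a4, Slc39a6 and Slc39a14 not analysed here. A metal response element core lay in 3 of the 10 windows, that of Slc39a3, the first of Slc39a5 and the second of Slc39a8, beside 21.4% of 32851 windows of all genes. The glucocorticoid response element core lay in 0 of the 10, beside 5.84% of all. A match of letters is a description and not a bound site. The windows of 3 genes described next, Slc39a5 and Slc39a10 for their values with zinc and Slc39a1 for its values with Dex, are shown 5′ to 3′ on the gene's strand, with a matched core in capitals. That of Slc39a5 is the first of 2, lies at chr10:128401225-128401474 (minus strand) and holds TGCACNC, read on the opposite strand, at bases 129 to 123 before the start. The second window of Slc39a5, at chr10:128400467-128400716, holds none of the motifs and is not shown. Those of Slc39a10 (chr1:46925777-46926026, minus strand, the first of 2, whose start lies upstream of the GENCODE gene) and Slc39a1 (chr3:90247942-90248191, plus strand) hold none of these motifs.
Slc39a5: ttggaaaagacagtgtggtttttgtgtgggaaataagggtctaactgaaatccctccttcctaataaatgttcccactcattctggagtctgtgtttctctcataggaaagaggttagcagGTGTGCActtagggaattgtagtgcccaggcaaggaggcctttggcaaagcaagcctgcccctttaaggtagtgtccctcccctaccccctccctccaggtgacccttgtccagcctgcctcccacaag
Slc39a10: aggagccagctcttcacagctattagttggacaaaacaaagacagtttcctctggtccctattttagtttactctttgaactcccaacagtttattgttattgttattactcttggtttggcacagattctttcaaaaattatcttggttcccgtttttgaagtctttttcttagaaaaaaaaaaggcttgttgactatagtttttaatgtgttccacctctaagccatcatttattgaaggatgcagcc
Slc39a1: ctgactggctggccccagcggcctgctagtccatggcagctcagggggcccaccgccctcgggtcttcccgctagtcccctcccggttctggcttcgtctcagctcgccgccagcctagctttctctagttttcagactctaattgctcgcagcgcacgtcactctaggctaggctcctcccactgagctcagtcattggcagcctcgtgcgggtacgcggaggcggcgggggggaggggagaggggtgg

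Among the other plasma membrane importers, Slc39a1 (ZIP1, a widely expressed zinc importer) was lower with Dex. It had 484, 530 and 495 normalized counts in water-PBS, 611, 544 and 578 in zinc-PBS, and 460, 415 and 426 in water-Dex. The zinc-Dex livers had 383, 429 and 408.5. The zinc-PBS livers were the highest of the 4 groups and the zinc-Dex livers did not overlap with either PBS group. The difference between zinc-Dex and zinc-PBS was -0.50 on the log2 scale (SE 0.0963, DESeq2 adjusted p = 2.62e-06), or -29.5%, which passed the test without reaching 0.8. On plain water the Dex difference was -0.21 (SE 0.0972, adjusted p = 0.102) and did not pass. Zinc against plain water gave 0.20 with PBS (adjusted p = 0.783) and -0.09 with Dex (adjusted p = 0.876).

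Whether the Dex difference of Slc39a1 depended on the water was tested by the interaction, which was -0.29 (95% interval -0.56 to -0.02) with an unadjusted p of 0.0339 and a DESeq2 adjusted p of 1. It was thus not shown to depend on it. In this test 0.0191% of 26185 genes were called and 0.0229% passed on adjusted p, and none of the 10 ZIP genes. At an unadjusted p below 0.05 stood 1 of the 10 ZIP genes, Slc39a1, beside 1.99% of all genes tested, and edgeR's quasi-likelihood test also called 0. The 26185 genes include many scarce ones, which lowers these shares, since 13255 genes had at least 10 counts in 3 libraries, as all 10 ZIP genes did. Averaged over both waters in the fit added later, Dex lowered Slc39a1 by 0.36 (log2 fold change -0.36, SE 0.0747, DESeq2 adjusted p = 1.20e-05). In that average, 1 ZIP gene was called and 2 passed, beside 10.5% and 30.1% of 17089 genes.

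Slc39a3 (ZIP3, also a plasma membrane importer) had 86.5 to 125 normalized counts over the 12 libraries and passed no test. Its largest log2 difference was -0.29 between water-Dex and water-PBS (95% interval -0.62 to 0.05, DESeq2 adjusted p = 0.247).

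Slc39a5, on GRCm38 chr10:128395931-128401229, encodes ZIP5, an importer of the basolateral membrane of enterocytes and of pancreatic acinar cells. It was scarce in these livers, with 10.5, 16.4 and 6.59 normalized counts in water-PBS, 18.1, 23.6 and 33.5 in zinc-PBS, and 13.2, 24.5 and 13.9 in water-Dex. The zinc-Dex livers had 39.1, 16.7 and 27.9. All 6 zinc livers were above all 3 controls, but by as little as 16.7 in zinc-Dex replicate 2 against 16.4 in water-PBS replicate 2. Raw counts of these 2 libraries were 15 and 18, in the other order, and the share of all genes that separate so was not counted. The water-Dex and zinc-Dex values overlapped. Slc39a5 passed and was called only in zinc-Dex against water-PBS, at a log2 fold change of 1.30 (SE 0.459, DESeq2 adjusted p = 0.0339). That call rested on single libraries: leaving out replicate 1 or replicate 3 of the water-PBS group gave an adjusted p of 0.0781 or 0.128, leaving out replicate 1 or replicate 3 of the zinc-Dex group gave 0.180 or 0.0677, and a fit of these 2 groups alone gave 0.0544. Zinc against plain water gave 1.15 (95% interval 0.25 to 2.04, adjusted p = 0.528) with PBS and 0.71 (95% interval -0.15 to 1.56, adjusted p = 0.635) with Dex, and the average over both was 0.92 (adjusted p = 0.0721).

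The summed pancreatic acinar markers were at 0 in every zinc-PBS and water-Dex library and at most 1.10 elsewhere. Several scarce intestinal markers had higher means in zinc-PBS than in water-PBS. Sis was at 2.68 normalized counts in water-PBS, 8.92 in zinc-PBS and 2.12 in zinc-Dex. Muc2 was at 2.37, 8.27 and 1.70 in the same 3 groups, and Krt20 at 4.32, 10.5 and 2.12. The water-Dex means of Sis, Muc2 and Krt20 were 0.989, 0.684 and 3.00. The zinc-PBS livers were uneven, with 14.4, 9.62 and 2.72 for Sis and 3.61, 14.9 and 6.34 for Muc2. For Krt20 they had 21.7, 5.245 and 4.53, so that replicate 1 set most of the mean. Vil1, given above for the PBS groups, had 3.26, 4.44 and 6.73 in the zinc-Dex livers. The summed cholangiocyte markers, all 5 detected in every library, ran from 731 to 839 in water-PBS, 657 to 1159 in zinc-PBS, 588 to 814 in water-Dex and 947 to 1164 in zinc-Dex. Spp1 made up most of this sum, with a mean of 685 in water-PBS and 928 in zinc-Dex, while Sox9 was at 43.0 and 27.5 and Krt19 at 16.1 and 13.3. The part of these markers in the Slc39a5 values was not tested. The profiles most like that of Slc39a5 were those of Hmga1 (distance 1.53), Sun2 (1.57) and Ap4m1 (1.68), beside a median of 2.35.

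Slc39a6 and Slc39a10 encode the related plasma membrane importers ZIP6 and ZIP10. Slc39a10 (GRCm38 chr1:46807544-46892852) had 76.7, 56.4 and 62.6 normalized counts in water-PBS, 51.5, 39.3 and 24.4 in zinc-PBS, and 58.9, 57.4 and 52.4 in water-Dex. The zinc-Dex livers had 36.9, 41.1 and 46.1. All 6 zinc livers were below all 6 livers of mice on plain water, by as little as 51.5 in zinc-PBS replicate 1 against 52.4 in water-Dex replicate 3. Raw counts of these 2 libraries were 57 and 53, in the other order. The share of all genes that separate in this way was not counted. Neither zinc comparison passed by itself, with log2 fold changes of -0.76 (SE 0.262, DESeq2 adjusted p = 0.324) and -0.44 (SE 0.268, adjusted p = 0.626). The average zinc difference, from the fit added later, was -0.60 (SE 0.180, DESeq2 adjusted p = 0.0356), and with it 2 ZIP genes passed and 1 was called, beside 2.68% and 0.291% of 11350 genes.

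The average zinc difference of Slc39a10 lay close to the threshold. It passed under 5 of 16 alternatives, with adjusted p between 0.0223 and 0.155. Of the 12 fits that left out 1 library, 3 passed. The highest adjusted p values were 0.155 (water-PBS replicate 1 left out), 0.106 (zinc-Dex replicate 1) and 0.102 (zinc-PBS replicate 3). The other fits that did not pass left out water-PBS replicate 2 (0.0569), zinc-PBS replicate 2 (0.0956), the 3 water-Dex replicates (0.0806, 0.0794 and 0.0550) and zinc-Dex replicate 2 (0.0533). edgeR gave 0.0885.

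Slc39a6 had 30.8 to 36.4 normalized counts in water-PBS, 35.8 to 37.9 in zinc-PBS, 40.6 to 45.7 in water-Dex and 41.1 to 66.3 in zinc-Dex, so that every Dex liver was above every PBS liver. Its raw counts overlapped, with 28 to 42 in the PBS livers and 37 to 69 in the Dex livers. How many of all genes separate in this way was not counted. Its average Dex difference was 0.41 (95% interval 0.06 to 0.75, DESeq2 adjusted p = 0.0630) and did not pass.

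Slc39a8 encodes ZIP8, a manganese and zinc importer close in sequence to ZIP14, and its values went the other way from those of Slc39a14 with Dex without passing. They ran from 461 to 499 normalized counts in water-PBS, 376 to 466 in zinc-PBS, 409 to 440 in water-Dex and 381 to 407 in zinc-Dex. The water-Dex log2 fold change against the control was -0.18 (95% interval -0.39 to 0.02, DESeq2 adjusted p = 0.230), and that of zinc-Dex was -0.27 (95% interval -0.47 to -0.06, adjusted p = 0.0660).

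The remaining pair acts mainly inside the cell. Slc39a9 (ZIP9, in the Golgi and at the plasma membrane) varied little, with 753 to 851 normalized counts over the 12 libraries and log2 fold changes between -0.10 and 0.04 in the single-treatment comparisons. Slc39a7 (ZIP7, which releases zinc from the endoplasmic reticulum) had 25.5 to 38.9 and passed no test. Its level is uncertain, because 80.7% of its exon bases are shared with the same-strand transcript Gm20427, which itself had 0 to 2 counts, and a read that fits both genes may be assigned to neither.

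With both treatments together, compared with the same water-PBS controls as above, 3 ZIP genes were called and 4 passed on adjusted p. Of all 21401 genes tested, 7.24% were called and 14.8% passed. These 21401 include many scarce genes, which lowers the shares. With only the 13255 genes of at least 10 counts in 3 libraries, among them all 10 ZIP genes, 1622 were called. Slc39a4 was at -1.64 (SE 0.156, DESeq2 adjusted p = 1.12e-23), or 3.11-fold lower. Slc39a14 was at 1.04 (SE 0.122, adjusted p = 7.19e-16), or 2.06-fold higher. Slc39a5 is given above. Slc39a1 was at -0.31 (SE 0.0980, adjusted p = 0.0150), a pass that did not hold without water-PBS replicate 2 (0.0961) or without zinc-Dex replicate 1 (0.0833), nor in a fit of the 2 groups alone (0.0869) or with the replicate number as a block (0.0594). The median log2 fold change of the 10 ZIP genes was -0.24 here, beside -0.0024 over all genes tested. It was 0.0047 with zinc alone, -0.04 with Dex alone, -0.08 for zinc under Dex and -0.11 for Dex under zinc.

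Per kb of exon, the order of the ZIP genes in the control livers was led by Slc39a14 (264 ± 28.5 normalized counts per kb, SD, n = 3), Slc39a4 (215 ± 30.7) and Slc39a1 (213 ± 10.04). The range of Slc39a4 overlapped with both others, while those of Slc39a14 and Slc39a1 did not overlap. Slc39a9 (79.0 ± 1.30) and Slc39a8 (62.1 ± 2.58) followed, with Slc39a11, a ZIP gene outside the 10, between them at 67.3 ± 3.86. The ranges of Slc39a11 and Slc39a8 overlapped and that of Slc39a9 stood apart from both. Slc39a3 was at 29.0 ± 1.95, Slc39a7 at 13.4 ± 2.08, Slc39a10 at 10.7 ± 1.70, Slc39a6 at 8.42 ± 0.757 and Slc39a5 at 5.01 ± 2.22. The ranges of Slc39a7 and Slc39a10 overlapped, while those of Slc39a10 and Slc39a6, and of Slc39a6 and Slc39a5, did not. Gene length was taken as all annotated exon bases, and with the longest transcript instead Slc39a14 was at 544, Slc39a9 at 148 and Slc39a8 at 113 per kb, so that Slc39a14 then stood clear of Slc39a4 (242).

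The treatments changed this order. In zinc-PBS, Slc39a4 was at 75.9 normalized counts per kb, behind Slc39a14 (308), Slc39a1 (244) and Slc39a9 (81.2). In zinc-Dex it was at 68.9, behind Slc39a11 (80.1) as well. The ranges of Slc39a4 and Slc39a9 overlapped in both zinc groups. The order in the treated groups was read with all exon bases only and may differ with the longest transcript. Slc39a14 led in all 4 groups, at 472 per kb in water-Dex and 544 in zinc-Dex.

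Summed over the 10 genes, the level per kb was 899 ± 60.8 in water-PBS, 832 ± 44.2 in zinc-PBS, 1055.5 ± 57.7 in water-Dex and 979 ± 75.7 in zinc-Dex (SD, n = 3). The control and zinc-PBS sums overlapped (829.7 to 945 and 782 to 867), as did those of the Dex groups (1006.5 to 1119 and 917 to 1063). Slc39a4 made up 23.8%, 9.14%, 19.0% and 7.03% of the sum in these groups in turn. Slc39a14 made up 29.3%, 37.0%, 44.7% and 55.4%. The sums and shares rest on all annotated exon bases and were not computed with the longest transcript. With that length the Slc39a14 level in the controls was 544 per kb in place of 264, so the shares depend on the choice.

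**Figure D3:**
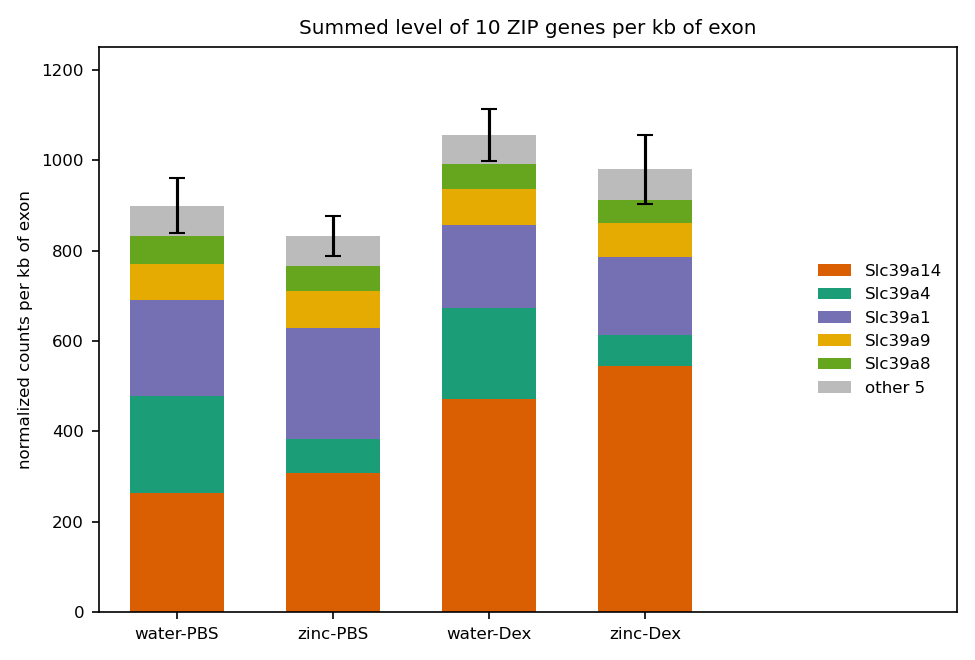
Mean normalized counts per kb of exon (vertical axis, from 0) of 10 ZIP genes, stacked, in the 4 groups, with the SD of the sum over 3 mice as error bars. The Slc39a4 share is 23.8% in water-PBS and 7.03% in zinc-Dex, and the Slc39a14 share is 29.3% and 55.4%.

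The other ZIP genes of the table passed no test. Slc39a11 had 212 to 300 normalized counts per library and Slc39a13 47.9 to 75.6. Slc39a2 had 1.92 to 9.88, and Slc39a12 at most 2.20.

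The 13 genes of zinc handling outside the ZIP family (10 ZnT genes, Mt1, Mt2 and Mtf1) were tested beside them. With zinc in PBS-injected mice 3 of 13 rose and none fell: Mt1 by a log2 fold change of 3.87, Mt2 by 5.38 and the exporter gene Slc30a1 by 0.70 (DESeq2 adjusted p = 1.20e-60, 5.65e-42 and 4.31e-05). Slc39a4 thus fell in the comparison in which these 3 rose. With zinc in Dex-injected mice Slc30a1 (0.81) and Mt1 (0.84) rose and Slc30a10, a manganese exporter, fell by 0.80 (adjusted p = 3.76e-06, 0.0189 and 3.99e-04).

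With Dex on plain water 4 of 13 rose, Mt1 (4.44), Mt2 (6.42), Slc30a9 (0.36) and Mtf1 (0.36), and Slc30a1 fell by 1.21 (largest DESeq2 adjusted p = 0.0219, for Mtf1). On zinc water Mt1 (1.41) and Mt2 (1.73) rose with Dex, and Slc30a1 (-1.10) and Slc30a10 (-0.63) fell. Against the controls, the zinc-Dex livers had higher Mt1 (5.28) and Mt2 (7.11) and lower Slc30a1 (-0.39) and Slc30a10 (-1.08). In the interaction test 2 of 13 passed, Mt1 (-3.03) and Mt2 (-4.69), with DESeq2 adjusted p of 6.37e-17 and 6.71e-16, where none of the ZIP genes did. On the log2 scale this test measures a departure from the product of the single-treatment fold changes. The Mt1 means were 349 in water-PBS, 5106 in zinc-PBS, 7558 in water-Dex and 13573 in zinc-Dex, and those of Mt2 were 27.8, 1169, 2397.5 and 3872. Both were thus highest with both treatments.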

How the data were processed

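Livers of 12 mice (4 groups of 3) were profiled by stranded, single-end RNA-seq. The authors deposited raw read counts per Ensembl gene, 1 column per mouse, made from reads mapped to mm10 with HISAT (HISAT2 2.0.4 in the submitters' processing notes) and counted with featureCounts without multimapping reads, while the strand setting and annotation release are not given in the sources used here. Reads of near-identical or overlapping genes may therefore be lost or split. Gene symbols, positions and exon lengths came from GENCODE M21 (GRCm38), which held 54809 of 54838 identifiers.

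Counts were analysed with DESeq2 1.42.0 in R 4.3.3: 1 fit of all 12 libraries with 1 coefficient per group, Wald test, unshrunken log2 fold changes, Benjamini-Hochberg adjustment over all genes tested, and independent filtering at 5% FDR. The study's methods also used DESeq2 at this rate. A gene was called at an adjusted p below 0.05 and a log2 fold change beyond 0.8. A fit with zinc and Dex as separate terms was added after the data had been seen. Levels per kb are normalized counts divided by exon length. Marker lists of 7 cell types, an acute phase list, a Dex check list and a zinc pathway list were read as summed normalized counts and as counts of genes passing.

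All 10 members were named in every comparison, and for each called member the 3 genes with the nearest profile. The members and lists were chosen with earlier results of these data known. Alternatives were edgeR 4.0.16, TMM factors, at least 10 counts in 3 libraries, a replicate block, no independent filtering, only the libraries compared, no fold threshold, leaving out each library, and transcript length. Totals of 9091152 to 12303527 counts limit the precision of the scarce ZIP genes.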

Additional observations from a re-analysis of the deposited data

How the results depend on the processing

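Slc39a4 stayed called in both zinc comparisons under all 12 alternatives of each, at log2 fold changes of -1.61 to -1.41 (PBS) and -1.65 to -1.41 (Dex). Slc39a14 passed on adjusted p under all 12 alternatives of each Dex comparison, but with 1 library left out the number of ZIP genes called ran from 0 to 1 both for water-Dex against water-PBS and for zinc-Dex against zinc-PBS, and with no fold change threshold the latter was 2. Among the ZIP genes that passed no main test, Slc39a8 passed on adjusted p in zinc-Dex against water-PBS under 3 of 12 alternatives (lowest 0.0241) and in the average Dex difference under 2 of 16 (0.0225), and Slc39a6 under 1 of 12 (0.0400) and 3 of 16 (0.0238). Without 1 library some small differences that passed no test changed sign. Their log2 ranges were, for zinc-PBS against water-PBS, -0.15 to 0.056 (Slc39a7), for water-Dex against water-PBS, -0.098 to 0.10 (Slc39a7) and -0.015 to 0.063 (Slc39a9), for zinc-Dex against water-Dex, -0.025 to 0.35 (Slc39a6), and for zinc-Dex against zinc-PBS, -0.16 to 0.42 (Slc39a5) and -0.13 to 0.38 (Slc39a10). For the interaction they were -0.15 to 0.091 (Slc39a4), -0.12 to 0.066 (Slc39a14), -0.0084 to 0.14 (Slc39a8) and -0.13 to 0.25 (Slc39a6). For the average differences they were -0.054 to 0.024 (Slc39a3, zinc), -0.033 to 0.0028 (Slc39a9, zinc) and -0.18 to 0.021 (Slc39a10, Dex). The cause was not tested.

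Over all genes, the number called without the fold threshold was 42 in place of 17 (zinc-PBS against water-PBS), 173 in place of 60 (zinc-Dex against water-Dex), 3067 in place of 1376 (water-Dex against water-PBS), 3145 in place of 1516 (zinc-Dex against zinc-PBS), 3174 in place of 1550 (zinc-Dex against water-PBS), and 304 in place of 33 and 5142 in place of 1796 for the average zinc and Dex differences. edgeR called 9, 21 and, for the interaction, 3 in place of 17, 60 and 5. Leaving out 1 library gave 11 to 38 for zinc-PBS against water-PBS, 26 to 101 for zinc-Dex against water-Dex, up to 23 for the interaction and 16 to 52 for the average zinc difference. TMM factors shifted the median by less than 0.01.

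Same-numbered libraries did not deviate together (correlations of -0.204 to 0.191, with 2 of 12 libraries correlating best with their own number). The labels do not say whether same-numbered mice shared anything beyond the number. With the replicate block Slc39a1 in zinc-Dex against water-PBS had an adjusted p of 0.0594 and Slc39a10 in the average zinc difference 0.0621, while the interaction had 8 genes called in place of 5 and the average zinc difference 21 in place of 33. Counts of 6.59 to 39.1 per library limit Slc39a5, and those of 24.4 to 76.7 limit Slc39a10.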

Other observations

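The remaining marker lists were read for the make-up of the livers in which the ZIP genes were measured. The 6 Kupffer cell markers summed to between 3846.0 and 5502.8 normalized counts over the 12 libraries, and none of them passed a DESeq2 test in any comparison. The 5 stellate cell markers summed to 3539.8 to 3941.2 in the PBS groups and to 3864.0 to 4619.5 in the Dex groups, where 1 fell with Dex on plain water and 1 rose with Dex on zinc water. The acute phase list, which holds Hp and Fgb, summed to 59417.6 to 79239.3 in water-PBS, 79207.1 to 108231.2 in zinc-PBS, 122941.1 to 125887.1 in water-Dex and 125407.4 to 132205.8 in zinc-Dex. Hp and Fgb made up most of this sum in every library. Of the 10 genes, 3 rose and 1 fell with Dex on plain water, and 2 rose and 2 fell on zinc water. Socs3 fell on both, from a mean of 105 to 15.5 normalized counts on plain water. Cxcl1 fell on zinc water, from 3021, 50.7 and 163 in the zinc-PBS livers to a mean of 8.18 in zinc-Dex. The zinc-PBS mean of 1078 was thus set by 1 library. On plain water the Cxcl1 means were 60.1 and 7.70 (DESeq2 adjusted p = 0.0647). The part of these genes in the Slc39a14 levels was not tested.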
